A study of Mus musculus with 12 samples.

Results

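The genes described here are 10 markers of smooth muscle cells and pericytes, the contractile cells that wrap arteries and capillaries and are together called mural cells. They were chosen by name and matched by mouse symbol to the gene identifiers of the deposited count tables, which hold 49315 genes. All 10 were matched, and 9 of the 10 were among the 17164 genes that passed the filter on low counts, all except Kcnj8. Acta2, Tagln, Cnn1 and Myh11 encode proteins of the smooth muscle contractile apparatus, and Des an intermediate filament of muscle. Mcam, Cspg4 and Pdgfrb encode cell surface proteins used to recognise pericytes, Rgs5 an inhibitor of G protein signalling, and Kcnj8 the pore of a vascular potassium channel.

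RNA was taken from primary cultures of wild-type mouse retina labelled as Müller glia, the radial glial cells that span the retina. The glia had been starved in serum-free medium, grown in 10% serum and passaged at least 3 times, and 4 times according to the design text. They were then co-cultured in transwell plates for 2 h or 6 h with retinal pigment epithelium (RPE) in primary culture, also from mouse and also passaged. The RPE of 2 groups had been given PNU-282987 (PNU below) at 100 nM in DMSO, a compound that activates the nicotinic acetylcholine receptor made of α7 subunits, and that of the other 2 groups DMSO alone, so all 4 groups shared the solvent. The labels give 2 different DMSO concentrations, and neither the strain nor the age of the mice. Each group has 3 libraries, called biological replicates in the labels without saying whether they came from separate animals or cultures. The p-values therefore measure only the spread between these samples, which may be technical.

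In smooth muscle, actin filaments built from Acta2 slide along myosin filaments built from Myh11, and Cnn1 and Tagln bind the actin filaments and stabilise them. Many of these contractile genes are switched on by serum response factor (SRF), which binds a short element called the CArG box together with its cofactors myocardin or the myocardin-related transcription factors. Pericytes are recruited to growing vessels by PDGF-B, which acts on their receptor PDGFRβ, and in the retina they surround the capillaries of the inner layers. None of these markers belongs to mural cells alone: fibroblasts that turn contractile also use Acta2, Tagln and Cnn1, and glial progenitors also carry Cspg4.

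Because Acta2 and Cnn1 are textbook targets of SRF, and because Cspg4 changed with PNU below, the DNA upstream of these 3 genes is shown (GRCm38.p6, strand of the gene, 5′ to 3′). Windows of 250 bases ending at the base before the RefSeq start were searched, and only bases outside the gene's own exons in the deposited tables are printed. The deposited model starts earlier than RefSeq for Cnn1, Cspg4 and Mcam, so 37, 71 and 189 bases of their windows lay inside its first exon. Capitals mark every match of the motifs searched on both strands. The motifs were the CArG box, a CArG-like box in which 1 of the 6 central bases may be G or C, the MCAT element GGAATG bound by TEAD factors, the GC box GGGCGG, the TATA box TATAAA and the FOS-JUN site. A CArG box is also counted as a CArG-like box.
Acta2, chr19:34255374-34255623, minus strand: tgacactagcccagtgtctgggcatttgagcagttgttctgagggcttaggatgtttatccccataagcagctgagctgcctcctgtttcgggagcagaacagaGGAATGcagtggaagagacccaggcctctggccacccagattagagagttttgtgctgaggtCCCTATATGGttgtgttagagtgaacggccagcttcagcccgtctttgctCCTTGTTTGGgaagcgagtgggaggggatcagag
Cnn1, chr9:22099003-22099215, plus strand: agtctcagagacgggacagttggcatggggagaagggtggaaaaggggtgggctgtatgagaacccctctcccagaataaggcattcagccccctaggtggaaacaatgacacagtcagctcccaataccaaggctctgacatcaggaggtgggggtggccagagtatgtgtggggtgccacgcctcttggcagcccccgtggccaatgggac
Cspg4, chr9:56864854-56865032, plus strand: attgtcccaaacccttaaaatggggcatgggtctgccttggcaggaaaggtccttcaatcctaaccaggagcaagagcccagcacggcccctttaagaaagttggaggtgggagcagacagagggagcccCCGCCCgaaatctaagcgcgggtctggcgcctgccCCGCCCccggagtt

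The Acta2 window held 2 CArG-like boxes, CCCTATATGG starting 84 bases and CCTTGTTTGG starting 34 bases before the RefSeq start, and 1 MCAT element starting 146 bases before it. The Cnn1 window held none of the motifs searched, and the Cspg4 window 2 GC boxes, both upstream of the deposited model. The Mcam window held 5 GC boxes, all 5 inside its deposited first exon. Of 32817 RefSeq windows of this length, 8.6% held a CArG-like box, 1.47% a CArG box, 12.6% an MCAT element, 32.7% a GC box, 12.4% a TATA box and 4.46% a FOS-JUN site. RefSeq windows were matched for 7 of the 10 genes, without Tagln, Myh11 and Pdgfrb. The window of Des held 2 GC boxes, and those of Rgs5 and Kcnj8 held none of these motifs. A match describes the letters of a window and is not a measured binding site.

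The 12 libraries held 44332013 to 66518799 counts each. Expression levels are given as CPM, the count relative to the TMM-scaled library total, and per kilobase of exon model (RPKM) wherever 2 genes are compared. A count of 3 corresponds to 0.0458 to 0.0692 CPM and was taken as the floor of detection, which covers counting error only. Replicates 2 and 3 of PNU at 2 h, replicates 2 and 3 of PNU at 6 h and the 3 libraries of DMSO at 6 h were near-identical sets, with coefficients of variation beyond counting of 0.0192 to 0.0273 against 0.0643 to 0.279 for the other pairs within a group. They still varied 1.82 to 2.49 times as much as counting alone gives, so they were kept as separate libraries in the fit and summed in an alternative. Summing merged the 3 libraries of DMSO at 6 h into 1 and replicates 2 and 3 of each PNU group into 1. It left few libraries to estimate the spread, so a call lost there does not show that a difference is absent. For 5 of the 12 libraries the nearest library over all tested genes belonged to another group. Replicate 3 of DMSO at 2 h and replicate 1 of PNU at 2 h were each other's nearest, replicate 1 of PNU at 6 h was most like replicate 1 of DMSO at 6 h, and replicates 1 and 2 of DMSO at 2 h were most like DMSO libraries at 6 h. Replicate 3 of DMSO at 2 h and replicate 1 of PNU at 6 h lay farthest from their own groups and are called the libraries that stood apart. Leaving out libraries that resemble the other treatment widens a difference by construction, so values without them are given as descriptions. The share of all genes that passed is given for the reported fit only. Counts of genes that passed in other fits are given without that background. They therefore do not set these genes apart from other genes. The Y-linked gene Ddx3y also separated libraries: it stood at 2.33 CPM in PNU at 2 h replicate 1, 5.05 CPM in DMSO at 2 h replicate 3, and 7.30 and 6.67 CPM in PNU at 6 h replicates 2 and 3, against at most 0.140 CPM in the other 8 libraries. In 2 of the 3 PNU libraries at 6 h, treatment and the difference that Ddx3y marks cannot be told apart. At 2 h, PNU replicate 1 and DMSO replicate 3 held it, so each group mixed libraries with and without it.

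The cultures held abundant RNA for part of the mural programme and almost none for another part. Per kilobase, Acta2 was the 24th most abundant of all genes, with a median of 1158 RPKM over the 12 libraries (range 816 to 1386). Pdgfrb followed at 212 RPKM (169 to 252) and Tagln at 167 RPKM (105 to 219), and these neighbours in the order overlapped. Mcam came next at 48.1 RPKM (41.5 to 62.0) and Cspg4 at 26.2 RPKM (18.5 to 54.8), again overlapping. Acta2 lay above every other gene of the group in all 12 libraries.

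Cnn1, Myh11, Des, Rgs5 and Kcnj8 had lower medians than these. Cnn1 had a median of 10.4 RPKM (5.59 to 14.2), Myh11 of 2.83 RPKM (1.29 to 8.40) and Des of 1.03 RPKM (0.447 to 1.74), with overlap between Cnn1 and Myh11 and between Myh11 and Des. Rgs5 had a median of 0.0337 RPKM and Kcnj8 of 0.0177 RPKM. Rgs5 rested on 2 to 23 counts per library and 120 in all. Kcnj8 rested on 0 to 5 counts per library and 27 in all, was not tested, and had 0 counts in all 3 DMSO libraries at 2 h, where 3 counts would be 0.0473 to 0.0561 CPM.

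Paralogs from the non-muscle cytoskeleton set these levels in context. Acta2 reached 0.523 to 0.809 of the level of Actb, the cytoplasmic β-actin, per kilobase. Myh9, the heavy chain of non-muscle myosin IIA, stood 26.5 to 188 times above Myh11, and Cnn2, the calponin of non-muscle cells, 21.8 to 59.8 times above Cnn1. Tagln, by contrast, lay above its paralog Tagln2 in all 12 libraries, the ratio of Tagln2 to Tagln being 0.403 to 0.926. Actg2, the actin of visceral smooth muscle, had a median of 21.6 RPKM, and Acta1 and Actc1, the actins of skeletal and cardiac muscle, of 1.90 and 0.0560 RPKM. Pdgfra, the α receptor of the PDGF family, had a median of 13.5 RPKM.

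**Figure D1:**
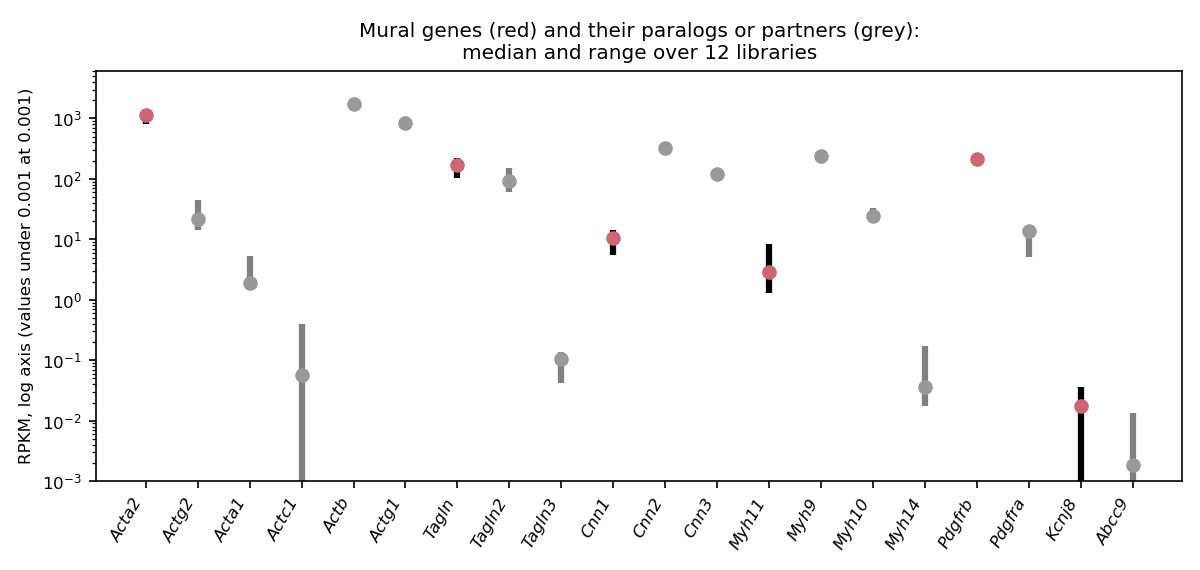
Median (point) and range (bar) over 12 libraries, in RPKM on a log axis, of 6 mural genes (red) beside their paralogs or channel partner (grey). Acta2 sits close to Actb, at 1158 RPKM, while Myh11 at 2.83 RPKM lies far under Myh9 and Kcnj8 at 0.0177 RPKM lies near Abcc9 at the bottom.

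The label was compared with marker genes of several cell types. Of 10 Müller glia markers, 5 had a median over 1 CPM. The filter on low counts was passed by 7: Glul, Slc1a3, Sox9, Vim, Apoe, Abca8a and Car14. Vim, an intermediate filament shared with mesenchymal cells, stood at 5869 to 7545 CPM. Rlbp1 and Aqp4, both defining markers, reached at most 0.296 and 0.214 CPM. Of 10 fibroblast markers, 8 had a median over 1 CPM, and their summed level was 14013.5 to 19361 CPM. Of 10 endothelial markers, 0 had a median over 1 CPM and their sum was 1.63 to 3.33 CPM; Pecam1 reached at most 0.349 CPM and Cdh5 at most 0.366 CPM. In bulk RNA, fewer cells of a type and less RNA per cell cannot be told apart, and which cells held the mural transcripts was not tested.

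At 2 h, 1 of the 9 tested genes, Cspg4, rose with PNU. It encodes NG2, a chondroitin sulphate proteoglycan on the surface of pericytes and glial progenitors (GRCm38 chromosome 9, 56865033 to 56899870, plus strand). In the PNU libraries it stood at 605, 639 and 654 CPM, and in the DMSO libraries at 356, 285 and 407 CPM (means 633 ± 25.2 and 350 ± 61.4 CPM, SD, n = 3). All PNU libraries lay above all DMSO libraries, with DMSO replicate 3 the highest of its group but still well under the PNU level. The log2 fold change was 0.86 ± 0.15 (SE), or 1.81-fold, with an adjusted p of 0.0385 by edgeR's quasi-likelihood test. Across all genes tested, 0.291% passed at 2 h, 0.210% in the upward direction.

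Cspg4 was the only one of the 9 whose 2 h groups did not overlap, against 21.7% of all genes. The call on Cspg4 was close to the threshold: it held in 14 of 25 alternatives, with fold changes of 0.73 to 1.01 on the log2 scale and adjusted p from 2.48e-06 to 0.55. It ended in edgeR when only the libraries at 2 h were fitted (adjusted p = 0.266), when near-identical libraries were summed (0.55), and without PNU at 2 h replicate 2 (0.188) or 3 (0.204), DMSO at 2 h replicate 1 (0.117) or 2 (0.17), PNU at 6 h replicate 2 (0.0724) or 3 (0.0754), or DMSO at 6 h replicate 1 (0.0903), 2 (0.0913) or 3 (0.0921).

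Of the contractile genes, Acta2, Tagln and Cnn1 had positive but uncalled differences at 2 h. Acta2, smooth muscle α-actin (chromosome 19, 34241090 to 34255336, minus strand), stood at 2468, 2163 and 2129 CPM with PNU and at 1751, 1454 and 2154 CPM with DMSO. DMSO replicate 3 thus lay inside the PNU range and the other DMSO libraries beneath it. The log2 difference was 0.33 ± 0.13 (SE; adjusted p = 0.119, edgeR). Tagln, the actin-binding protein SM22α (chromosome 9, 45929619 to 45936058, minus strand), stood at 403, 339 and 326 CPM with PNU and at 291, 208 and 405 CPM with DMSO. Its highest library of all 6 was again DMSO replicate 3, and the difference was 0.24 ± 0.19 (adjusted p = 0.394, edgeR).

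Cnn1, the smooth muscle calponin that dampens actomyosin activity (chromosome 9, 22099216 to 22109630, plus strand), showed the same arrangement at 2 h. It stood at 38.8, 31.5 and 29.2 CPM with PNU and at 20.7, 17.1 and 33.6 CPM with DMSO. Replicate 3 of the DMSO group overlapped the PNU libraries, and the difference was 0.48 ± 0.21 (adjusted p = 0.159, edgeR). Without DMSO at 2 h replicate 3, the differences became 0.49 for Acta2 (adjusted p = 0.00318, edgeR), 0.51 for Tagln (0.0113) and 0.81 for Cnn1 (0.00105). That library resembled the PNU libraries, so leaving it out widens these differences by construction. In that fit 5 of 9 genes passed, among them Des in the downward direction, a count with no share over all genes beside it. Acta2, Tagln and Cnn1 each passed at 2 h in 3 of 25 alternatives.

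Des, desmin (chromosome 1, 75360329 to 75368579, plus strand), lay in the opposite direction. It stood at 1.92, 2.58 and 1.68 CPM with PNU and at 6.54, 4.54 and 2.10 CPM with DMSO at 2 h. DMSO replicate 3 lay within the PNU range here as well, and the other DMSO libraries above it. The log2 difference of -1.10 ± 0.32 did not pass (adjusted p = 0.0775, edgeR) but did in DESeq2 (-1.08, adjusted p = 0.0125), and without DMSO at 2 h replicate 3 it was -1.43 (adjusted p = 0.000197, edgeR). It passed in 4 of 25 alternatives.

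The other 4 tested genes differed little between the 2 h groups relative to their spread. Myh11, the smooth muscle myosin heavy chain (chromosome 16, 14194527 to 14291408, minus strand), stood at 22.6, 11.4 and 10.5 CPM with PNU and at 24.8, 20.6 and 8.55 CPM with DMSO. Each group thus held 1 library far from the other 2, replicate 1 with PNU and replicate 3 with DMSO. Mcam, the adhesion molecule CD146 of endothelium and mural cells (chromosome 9, 44134469 to 44142727, plus strand), stood at 170, 156 and 158 against 164, 139 and 165 CPM. Its groups overlapped, with a difference of 0.05 ± 0.08 (adjusted p = 0.679, edgeR). Pdgfrb, the PDGF receptor β (chromosome 18, 61045150 to 61085061, plus strand), stood at 1346, 1181 and 1226 CPM with PNU and 1335, 1153 and 1160 CPM with DMSO (difference 0.04 ± 0.14, adjusted p = 0.856, edgeR). For Myh11 the difference was -0.28 ± 0.50 (adjusted p = 0.722, edgeR) and for Rgs5 0.06 ± 0.58 (0.953). Without the 3 libraries whose nearest library had the other treatment, Myh11 stood at -1.06 (adjusted p = 3.22e-05, edgeR). This exclusion, chosen after seeing the data, took out the far PNU and DMSO libraries of Myh11. It therefore widens the difference by construction and cannot show a PNU effect on Myh11. In that fit 6 of the 9 genes passed, again a count with no share over all genes beside it.

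**Figure D2:**
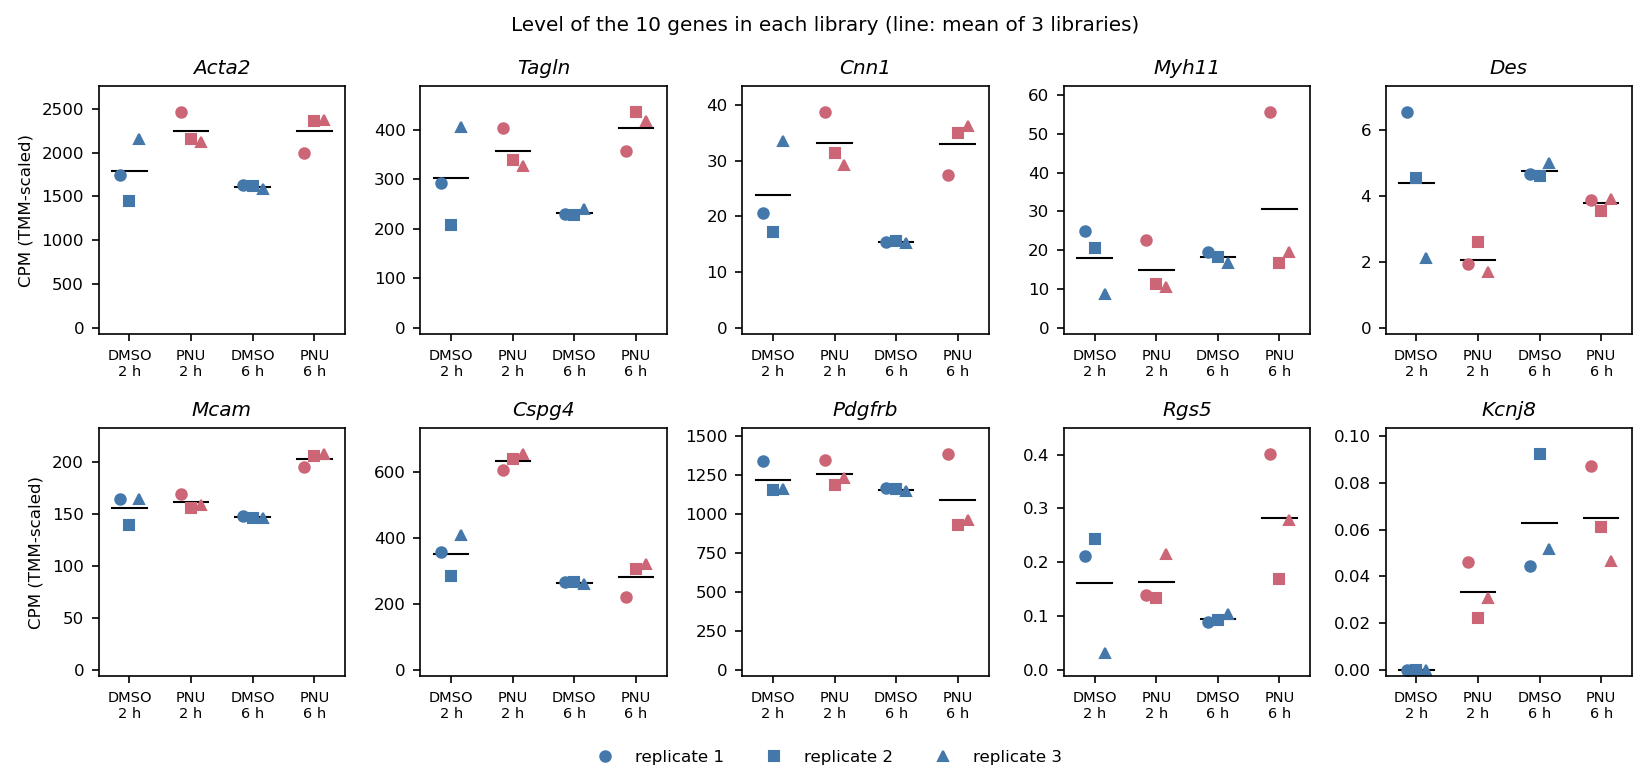
Level of each of the 10 genes (TMM-scaled CPM, linear axes that differ between panels) in every library, with circles, squares and triangles for replicates 1, 2 and 3, blue for DMSO, red for PNU and a line at the mean of 3 libraries. Cspg4 is high in the PNU libraries at 2 h, 605 to 654 CPM, and Cnn1 and Mcam are above DMSO in every PNU library at 6 h.

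At 6 h, 2 of the 9 tested genes rose with PNU, Cnn1 and Mcam, and none fell. Over all genes tested 1.05% passed at 6 h, 0.571% in the upward direction. Cnn1 stood at 27.5, 35.1 and 36.3 CPM with PNU and at 15.4, 15.5 and 15.3 CPM with DMSO (means 33.0 ± 4.75 and 15.4 ± 0.123 CPM, SD, n = 3). Every PNU library was higher than every DMSO library, with PNU replicate 1 the lowest of its group. The DMSO libraries, a near-identical set, were almost equal. The log2 fold change was 1.10 ± 0.22, or 2.14-fold (adjusted p = 0.038, edgeR).

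Mcam stood at 195, 205 and 208 CPM with PNU and at 148, 146 and 147 CPM with DMSO at 6 h (means 203 ± 6.82 and 147 ± 0.849 CPM). The groups were clearly apart, with little spread within either. The log2 fold change was 0.47 ± 0.08, or 1.38-fold (adjusted p = 0.0192, edgeR).

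Neither call at 6 h held with near-identical libraries summed. That fit had 1 library of DMSO at 6 h and few libraries to estimate the spread. The Cnn1 call held in 17 of 25 alternatives and also ended without PNU at 2 h replicate 2 (adjusted p = 0.0714, edgeR) or 3 (0.0629), PNU at 6 h replicate 2 (0.178) or 3 (0.177), or DMSO at 6 h replicate 1 (0.18), 2 (0.185) or 3 (0.192). The Mcam call held in 19 of 25 and ended without PNU at 6 h replicate 2 (0.101) or 3 (0.108), or DMSO at 6 h replicate 1 (0.111), 2 (0.129) or 3 (0.119).

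Acta2 and Tagln also lay higher in every PNU library at 6 h but did not pass. Acta2 stood at 1996, 2362 and 2379 CPM with PNU and at 1637, 1619 and 1585 CPM with DMSO, a log2 difference of 0.48 ± 0.13 (adjusted p = 0.109, edgeR). Tagln stood at 357, 436 and 417 CPM with PNU and at 229, 228 and 240 CPM with DMSO, a log2 difference of 0.80 ± 0.19 (adjusted p = 0.0748, edgeR). PNU replicate 1 was the lowest PNU library for both genes. Without it the differences were 0.56 for Acta2 (adjusted p = 0.0405, edgeR) and 0.88 for Tagln (0.0361), and without DMSO at 2 h replicate 3, which enters the estimate of the spread, they were 0.48 (0.00998) and 0.80 (0.00304). DESeq2 passed both as well (adjusted p = 0.0311 and 0.00553), as did edgeR fitted to the libraries at 6 h alone (0.0142 and 0.00373). Of 25 alternatives, Acta2 passed in 6 and did not in 19, and Tagln passed in 7 and did not in 18.

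The share of Acta2 among the counts of all 6 actin genes gives a view that does not depend on the scaling between libraries. With PNU it was 25.9%, 23.5% and 23.1% at 2 h and 25.4%, 24.8% and 24.5% at 6 h. With DMSO it was 19.2%, 18.9% and 23.5% at 2 h and 19.8%, 19.6% and 19.2% at 6 h. All 6 PNU libraries lay above 5 of the 6 DMSO libraries, and DMSO at 2 h replicate 3 lay among the PNU libraries. No test was made on these shares, since a ratio among actins shows only that they changed unequally.

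The remaining genes had no call at 6 h. Des stood at 3.86, 3.54 and 3.89 CPM with PNU and at 4.65, 4.60 and 4.97 CPM with DMSO, lower in every PNU library by a small margin (log2 difference -0.33 ± 0.32, adjusted p = 0.66, edgeR). Myh11 stood at 55.7, 16.7 and 19.6 CPM with PNU and at 19.4, 18.2 and 16.7 CPM with DMSO. PNU replicate 1 held by far the most Myh11 of all 12 libraries, and the others of its group lay at the DMSO level, and the difference was 0.76 ± 0.50 (adjusted p = 0.507, edgeR), or 0.01 without that library. Rgs5, which shortens signalling through G proteins in pericytes, stood at 0.402, 0.168 and 0.279 CPM with PNU and at 0.0885, 0.0924 and 0.103 CPM with DMSO, that is 11 to 23 counts against 4 to 6. Its groups did not overlap either, and the difference of 1.54 ± 0.59 did not pass (adjusted p = 0.232, edgeR).

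Cspg4, so high at 2 h, lay at 220, 305 and 321 CPM with PNU and at 265, 264 and 260 CPM with DMSO at 6 h. PNU replicate 1 was the lowest of these 6 libraries and the other PNU libraries the highest, giving a difference of 0.10 ± 0.14 (adjusted p = 0.783, edgeR). Pdgfrb stood at 1383, 928 and 959 CPM with PNU and at 1161, 1157 and 1143 CPM with DMSO. Here PNU replicate 1 was above DMSO and the other PNU libraries beneath it, and the difference was -0.08 ± 0.14 (adjusted p = 0.817, edgeR). Without both libraries that stood apart, Cspg4 (0.25, adjusted p = 0.0378) and Pdgfrb (-0.29, 0.0151) passed in edgeR, as did Acta2, Tagln, Cnn1 and Mcam. Cspg4 and Pdgfrb each passed at 6 h in 2 of 25 alternatives. In all, 6 of the 9 tested genes had groups that did not overlap at 6 h, 5 higher and 1 lower with PNU, against 34.7% of all genes.

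The median log2 difference of the 9 tested genes was 0.06 at 2 h, against -0.01 over all genes tested, and 0.48 at 6 h, against 0 over all genes tested. At each time 7 of the 9 differences were above 0, against 48.3% of all genes at 2 h and 49.3% at 6 h. These shares describe 9 genes chosen by name.

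**Figure D3:**
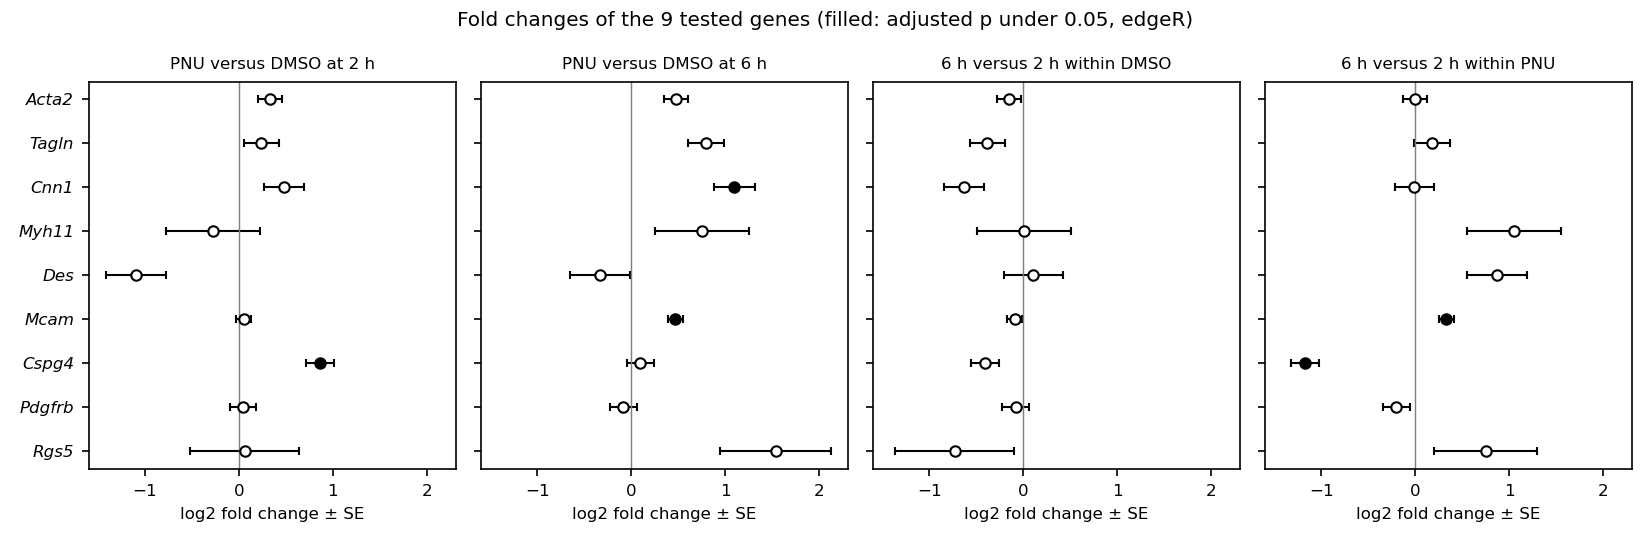
Log2 fold changes with their SE for the 9 tested genes in 4 comparisons, filled where the adjusted p is under 0.05 (edgeR). Cspg4 stands out at 2 h (0.86) and within PNU over time (-1.17), and Cnn1 (1.10) and Mcam (0.47) are filled at 6 h.

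The PNU effect itself was compared between the times with an interaction term, and 0 of the 9 genes passed, against 0.0350% of all genes. For Mcam the effect at 6 h exceeded that at 2 h by 0.42 ± 0.11 on the log2 scale (unadjusted p = 0.00282, adjusted p = 0.217, edgeR). For Cspg4 it was smaller at 6 h by a log2 value of -0.75 ± 0.21 (unadjusted p = 0.00341, adjusted p = 0.227, edgeR). These were the only 2 with an unadjusted p under 0.05, a range that held 11.3% of all genes. Without DMSO at 2 h replicate 3, 4 genes passed in edgeR: Mcam (0.37, adjusted p = 0.0307), Cspg4 (-0.88, 0.0101), Des (1.10, 0.0168) and Rgs5 (1.98, 0.0475). Without the 3 libraries whose nearest library had the other treatment, 5 passed: Mcam, Cspg4, Des, Cnn1 (0.53, adjusted p = 0.00923) and Myh11 (1.07, 0.000806). Both exclusions took out libraries that resemble the other treatment, so these values are descriptions only. Neither count has a share over all genes beside it. DESeq2, limma-voom and the fits with other scalings or filters passed 0. The rise of Cspg4 at 2 h and those of Cnn1 and Mcam at 6 h are therefore not shown to differ between the times with all libraries in the fit.

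Over time in the DMSO co-cultures, 0 of the 9 genes passed in edgeR, and 0% of all genes did, with 4.77% of all genes at an unadjusted p under 0.05. DESeq2 and limma-voom also passed 0 of the 9. Cnn1 was lower at 6 h (15.3 to 15.5 CPM) than in any 2 h library (17.1 to 33.6 CPM), with a log2 difference of -0.63 ± 0.21 (unadjusted p = 0.0133, adjusted p = 0.888, edgeR). Cspg4 was lower as well (260 to 265 against 285 to 407 CPM; -0.41 ± 0.15, unadjusted p = 0.0157, adjusted p = 0.888). For the other 7 the groups overlapped, against 9.90% of all genes whose groups did not.

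Within the PNU co-cultures, Cspg4 fell and Mcam rose from 2 h to 6 h, 2 of 9 genes, against 16.1% of all genes (8.66% lower, 7.42% higher). This comparison uses the same PNU libraries as those against DMSO, so it is not independent of them. Cspg4 went from 605 to 654 CPM at 2 h to 220 to 321 CPM at 6 h, a log2 fold change of -1.17 ± 0.15 (adjusted p = 0.00256, edgeR), and the call held in 24 of 25 alternatives. It ended where near-identical libraries were summed (adjusted p = 0.41, edgeR). Mcam went from 156 to 170 CPM at 2 h to 195 to 208 CPM at 6 h, a log2 fold change of 0.33 ± 0.08 (adjusted p = 0.0204, edgeR). Its call held in 20 of 25 and ended without PNU at 2 h replicate 2 (0.0839) or 3 (0.0819), without PNU at 6 h replicate 2 (0.0662) or 3 (0.0656), and with near-identical libraries summed (0.435).

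The other genes did not pass over time with PNU. Des lay at 1.68 to 2.58 CPM at 2 h and at 3.54 to 3.89 CPM at 6 h, without overlap, which was also found for 51.1% of all genes (0.87 ± 0.32, adjusted p = 0.0815, edgeR). Its difference passed in DESeq2 (0.88, adjusted p = 0.0332) and in edgeR fitted to the PNU libraries alone (0.0149), and without DMSO at 2 h replicate 1 (0.0374) or 3 (0.00346). In all it passed in 6 of 25 alternatives. Acta2, Tagln and Cnn1 differed by 0.00 ± 0.13, 0.18 ± 0.19 and -0.01 ± 0.21 between the times, with adjusted p from 0.514 to 0.983. Myh11 (1.05 ± 0.50, adjusted p = 0.163), Pdgfrb (-0.20 ± 0.14, 0.31, or -0.40 and 0.0223 without PNU at 6 h replicate 1) and Rgs5 (0.75 ± 0.55, 0.342) had overlapping groups.

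Over all 12 libraries the 9 tested genes did not vary as 1 block. Likeness was measured as the root mean square difference of log2(CPM + 0.1) after each gene was centred on its own mean, so a small value is reached by 2 genes with like profiles and also by 2 genes that vary little. Acta2 and Tagln were the closest pair, at 0.145, followed by Acta2 and Mcam at 0.166 and Tagln and Cnn1 at 0.185. Mcam itself had an SD of only 0.188 on this scale and Acta2 of 0.252, against 0.370 for Tagln and 0.508 for Cnn1, so the value for Acta2 and Mcam does not show that they share a profile. Cnn1 and Des differed by 0.995 and Myh11 and Cspg4 by 1.05, the largest value of the 36 pairs. These points share their libraries, so the values describe this set of 12 only.

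The genes also differed in how far they ranged. The highest library exceeded the lowest 1.49-fold for Mcam and Pdgfrb, 1.70-fold for Acta2, 2.10-fold for Tagln, 2.53-fold for Cnn1 and 2.97-fold for Cspg4. Des ranged 3.73-fold and Myh11 6.45-fold, each on log2(CPM + 0.1) values. Rgs5 lay between 2 and 23 counts, where the added 0.1 would set the ratio, so none is given. In DMSO at 2 h replicate 3, Acta2, Tagln, Cnn1, Des and Mcam were nearer to the PNU mean at 2 h than to the other DMSO libraries. Myh11 and Rgs5 lay under both there, Cspg4 lay between them and nearer to DMSO, and Pdgfrb differed by -0.10 and -0.11 from DMSO and PNU. In PNU at 6 h replicate 1, Acta2, Tagln, Cnn1, Des and Mcam were nearer to the other PNU libraries than to the DMSO mean. Myh11 lay above both by 1.61 and 1.62, Rgs5 and Pdgfrb also lay above both, and Cspg4 lay under both.

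**Figure D4:**
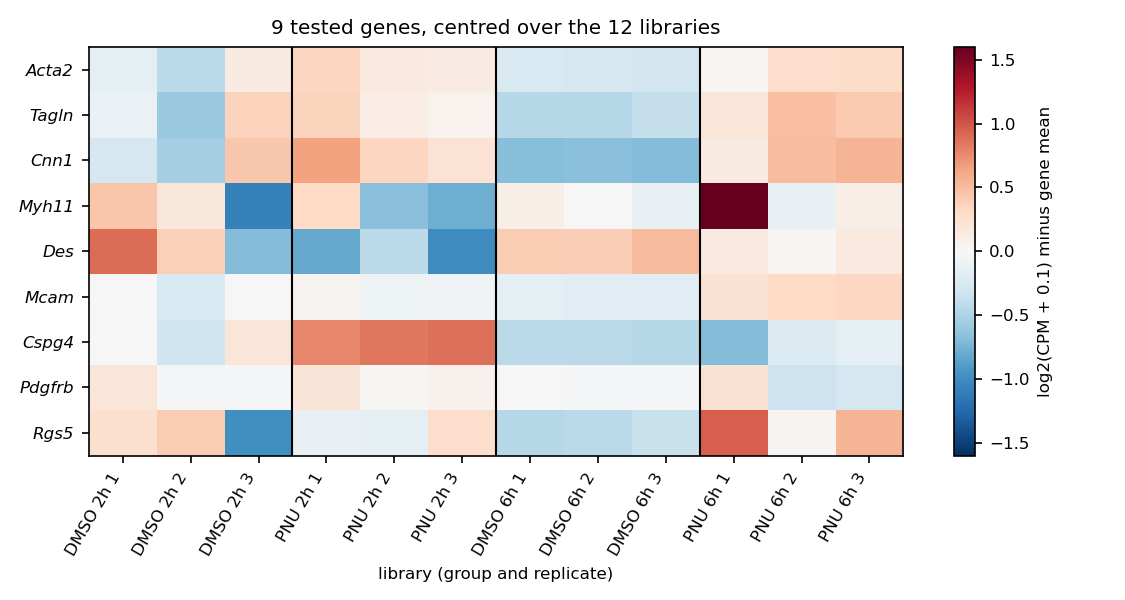
Profile of the 9 tested genes over the 12 libraries, as log2(CPM + 0.1) minus each gene's mean (red high, blue low). Acta2, Tagln and Cnn1 share a pattern in which DMSO at 2 h replicate 3 resembles the PNU libraries, Cspg4 is high in the PNU libraries at 2 h, and Myh11 is highest in PNU at 6 h replicate 1.

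By the same measure, the genes with the profiles most like those of the mural genes came from many functions. Among tested genes with a mean of at least 10 CPM, the 3 nearest to Tagln were Rnd1, a small GTPase (0.123), Mafk, a small Maf transcription factor (0.123), and Tpm1, a tropomyosin that lies along actin filaments (0.142). The nearest to Cnn1 were Ddah1, which degrades methylated arginines (0.135), Kif5c, a kinesin (0.181), and Ccdc80, a secreted matrix protein (0.186). The nearest to Mcam were Arhgef18, a guanine nucleotide exchange factor (0.0687), Lingo1 (0.069) and Ldha, lactate dehydrogenase A (0.0719).

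Cspg4 was most like Cdt1, a DNA replication licensing factor (0.145), Itgb3, the integrin β3 chain (0.156), and C530008M17Rik (0.16). Myh11 was most like Pappa, a protease of IGF-binding proteins (0.278), Plat, tissue plasminogen activator (0.312), and St5 (0.313). Des was most like 9930012K11Rik (0.142), Gatd1 (0.163) and Man2b1, a lysosomal mannosidase (0.165).

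Genes of the same pathways were taken from lists. Of 36 other contractile and cytoskeletal genes of smooth muscle, 35 were tested, 31 had a median over 1 CPM and 16 over 100 CPM. At 2 h 0 of the 35 passed (median log2 difference 0.08), and at 6 h 1 rose, Palld, the actin cross-linker palladin (median 0.15), where 0.571% of all genes rose. Palld stood at 328, 327 and 343 CPM with PNU and at 269, 268 and 265 CPM with DMSO at 6 h, a log2 fold change of 0.32 ± 0.07 (adjusted p = 0.0491, edgeR). Actn1, α-actinin, was higher in every PNU library at both times without passing (0.58 ± 0.18 at 2 h and 0.65 ± 0.18 at 6 h, adjusted p = 0.079 and 0.106, edgeR). Tpm1 behaved likewise in level, at 828 to 1004 CPM with PNU and 591 to 601 CPM with DMSO at 6 h (0.66 ± 0.15, adjusted p = 0.0704).

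Within PNU over time, 5 of these 35 rose and 3 fell, where 7.42% of all genes rose and 8.66% fell. The risen ones were Filip1l (1.33 ± 0.23), Lmod1, a leiomodin that nucleates actin filaments in smooth muscle (0.79 ± 0.19), Csrp1, Ldb3 and Mrvi1, and the fallen ones included Actg2 (-0.99 ± 0.22) and Myl6, a myosin light chain. Actg2 lay at 43.6 to 69.7 CPM at 2 h and at 22.8 to 33.7 CPM at 6 h with PNU (adjusted p = 0.0171, edgeR). It was also lower at 6 h with DMSO, without overlap (-0.80 ± 0.22, unadjusted p = 0.00359, adjusted p = 0.888, edgeR). Its PNU effect differed between the times by only -0.19 ± 0.31 (adjusted p = 0.834, edgeR). Acta2 differed by 0.00 ± 0.13 over time with PNU.

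The regulators of contractile genes were matched for 25 of 27 listed symbols, the other 2 being older names of Mrtfa and Mrtfb, and 24 were tested. At 2 h 1 rose, where 0.210% of all genes rose, and the median was 0.23. It was Smad3, which carries TGF-β signals to the nucleus (89.2 ± 6.26 against 63.7 ± 4.88 CPM, log2 fold change 0.49 ± 0.08, adjusted p = 0.0327, edgeR). At 6 h 0 passed and the median was 0.13. Srf stood at 92.8 to 96.8 CPM with PNU and 92.9 to 120 CPM with DMSO at 2 h (-0.13 ± 0.11, adjusted p = 0.42, edgeR). Its cofactors Mrtfa and Mrtfb differed by 0.01 ± 0.09 and -0.02 ± 0.11 at 2 h and by 0.04 ± 0.09 and -0.01 ± 0.11 at 6 h, none past the test. Myocd, myocardin, the cofactor restricted to muscle, was scarce, at 0.296 to 0.994 CPM.

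Over time with PNU, 2 of the 24 regulators rose and 8 fell, in the comparison where 7.42% of all genes rose and 8.66% fell. Klf4, a repressor of contractile genes in dedifferentiating smooth muscle, fell from 391 ± 6.32 to 181 ± 8.30 CPM (-1.11 ± 0.18, adjusted p = 0.00591, edgeR). It was also lower at 6 h with DMSO, without overlap (-0.59 ± 0.18, unadjusted p = 0.0062, adjusted p = 0.888, edgeR). Its PNU effect differed between the times by -0.52 ± 0.25 (adjusted p = 0.468, edgeR). With PNU, Smad3 fell (-0.39 ± 0.08), as did Nr4a1, an orphan nuclear receptor and immediate early gene (-2.90 ± 0.72), Mef2c, Gata6, Elk4, Tgfb1 and Tgfbr1. Hey2, a Notch target, rose (1.98 ± 0.30) with Foxo4.

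Of 30 other pericyte and mural genes, 23 were tested, 13 had a median over 1 CPM, and 14 did not reach 1 CPM in any library. The latter included Abcc9, Vtn, Higd1b and Atp13a5, all used to recognise brain pericytes. At both times 0 of the 23 passed, with medians of -0.48 at 2 h and -0.34 at 6 h. Cd248, endosialin of pericytes and fibroblasts, was abundant at 822 to 1392 CPM, and Notch3, the Notch receptor of mural cells, lay at 43.6 to 256 CPM. Within PNU over time Anpep and Tbx18 rose, and Foxs1 (-1.72 ± 0.27) and Gjc1 (-0.52 ± 0.09) fell, 4 of 23 where 16.1% of all genes passed, a share near that background.

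The channel that Kcnj8 forms with the sulphonylurea receptor Abcc9 was hardly represented. All 4 KATP channel genes, Kcnj8, Kcnj11, Abcc8 and Abcc9, stayed under 1 CPM in all 12 libraries, and 0 passed the filter. Kcnj8 stood at 0.0461, 0.0222 and 0.0308 CPM with PNU at 2 h, at 0.0873, 0.0611 and 0.0465 CPM with PNU at 6 h and at 0.0442, 0.0924 and 0.0516 CPM with DMSO at 6 h. These values lie around the floor of 3 counts, so no fold is given.

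Ligands for Pdgfrb were present and none passed against DMSO. Pdgfb, the ligand that recruits pericytes, stood at 3.39, 15.4 and 14.2 CPM with PNU and at 0.246, 0.187 and 3.86 CPM with DMSO at 2 h (2.92 ± 1.10 on the log2 scale, adjusted p = 0.117, edgeR). At 6 h it stood at 0.402, 3.86 and 4.42 CPM with PNU and at 0.221, 0.222 and 0.293 CPM with DMSO (3.55 ± 1.26, adjusted p = 0.206). Replicate 3 of DMSO at 2 h again lay among the PNU libraries, while replicate 1 of PNU at 6 h lay near DMSO. Pdgfd, which also binds Pdgfrb, rose within PNU from 3.19 to 5.86 CPM at 2 h to 11.7 to 11.8 CPM at 6 h (1.47 ± 0.22, adjusted p = 0.00489, edgeR), and so did Pdgfrl (0.54 ± 0.16). These were 2 of 6 tested genes of the PDGF list, where 7.42% of all genes rose.

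Among 11 tested paralogs of actin, calponin and myosin, 0 passed at 2 h and 1 rose at 6 h, where 0.571% of all genes rose. It was Myh14, the heavy chain of non-muscle myosin IIC (0.902 ± 0.359 against 0.176 ± 0.0598 CPM, log2 fold change 2.37 ± 0.37, adjusted p = 0.0137, edgeR). Within PNU over time 3 of the 11 rose and 1 fell, where 7.42% of all genes rose and 8.66% fell. Acta1 was higher in every PNU library at 6 h without passing (1.30 ± 0.28, adjusted p = 0.0572). Of 11 tested RGS genes, 0 passed at either time, and within PNU over time Rgs2 rose (1.57 ± 0.41) and Rgs16 fell (-0.71 ± 0.22). With 1 of 11 in each direction, these shares lie near those of all genes. The 3 collagen VI chains, matrix proteins that also bind NG2, did not pass at either time. Over time within PNU 1 of the 3 fell, Col6a3 (-0.39 ± 0.07), where 8.66% of all genes fell.

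Summed markers of some other cell types did not overlap between the groups in the same comparisons, and their part in the mural results was not tested. At 6 h, 10 skeletal muscle markers summed to 8.68 to 17.4 CPM with PNU and 5.29 to 5.64 CPM with DMSO, with 1 of 10 at a median over 1 CPM. A total of 8 leukocyte markers summed to 9.71 to 11.9 CPM with PNU and 4.29 to 4.82 CPM with DMSO, with 2 of 8 over 1 CPM, and Csf1r rose (1.81 ± 0.29, adjusted p = 0.0141, edgeR). Cardiac markers summed to 3.09 to 6.19 against 2.21 to 2.33 CPM, with 2 of 8 over 1 CPM. The endothelial sum was 3.02 to 3.33 against 1.63 to 2.28 CPM, and the sum of 5 astrocyte markers 2.16 to 3.22 against 5.22 to 5.59 CPM. The tested astrocyte markers had both signs at 6 h, with S100b at -1.67 ± 0.37, Aldh1l1 at 1.64 ± 0.54 and Pax2 at 1.09 ± 0.66. None of them passed in edgeR, so the lower sum does not describe the list as a whole.

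The other 4 sums overlapped at 6 h. The fibroblast sum was 15912 to 16794 CPM with PNU against 15870.5 to 15972 CPM with DMSO, although Dcn and Lum, both matrix proteoglycans, fell. The RPE sum was 2.87 to 4.73 against 4.67 to 4.92 CPM, with 1 of 10 RPE markers at a median over 1 CPM, and the Müller glia and retinal neuron sums overlapped as well.

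At 2 h the sums overlapped between the groups for all lists except 2. The Müller glia sum was 7736 to 7858 CPM with PNU against 6034 to 7524 CPM with DMSO, and the astrocyte sum 1.73 to 2.33 against 2.35 to 7.10 CPM. The tested astrocyte markers S100b (-1.85 ± 0.38), Aldh1l1 (-0.68 ± 0.58) and Pax2 (0.33 ± 0.70) differed in sign, and none passed in edgeR. Nearly all of the Müller glia sum was Vim, 0 of the 7 tested markers of that list passed in edgeR, and their differences had both signs, with Sox9, a glial transcription factor, at 1.07 ± 0.25 and Slc1a3, a glutamate transporter, at -1.47 ± 0.72. Tagln shares 62.4% of its exon bases with Gm48529 on the opposite strand and 5.43% with Pcsk7. Des shares 5.86% with Gm15179 and Mcam 0.507% with Gm10687, each on the opposite strand. No source used here states whether the counting used strand, so the values of Tagln, and to a lesser degree Des and Mcam, are uncertain to that extent. No window of 100 bases in the transcripts of Acta2, Cnn1, Myh11, Mcam, Cspg4, Pdgfrb, Rgs5 or Kcnj8 occurs in a transcript of another gene.

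**Figure D5:**
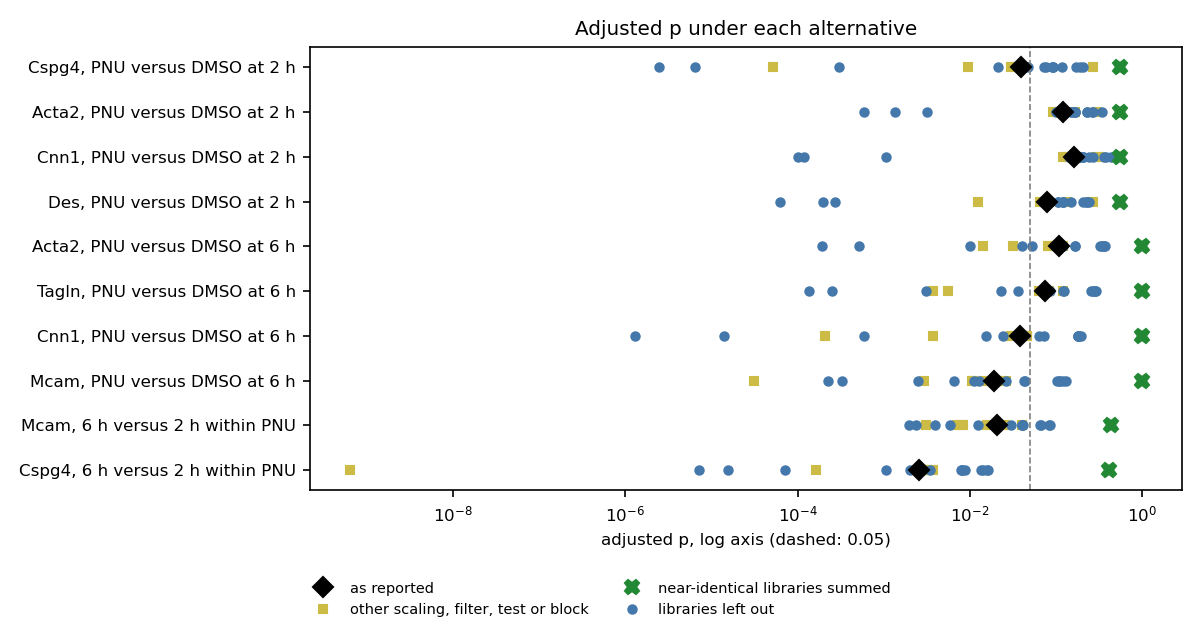
Adjusted p on a log axis for 10 results under each alternative: the reported fit (black diamond), another scaling, filter, test or block (yellow squares), libraries left out (blue circles) and near-identical libraries summed (green crosses); the dashed line is 0.05. The fall of Cspg4 within PNU over time stays left of the line in 24 of 25 alternatives. The fit with near-identical libraries summed, which had 1 library of DMSO at 6 h, lies to its right.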

How the data were processed

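Poly(A) RNA of the co-cultured glia was sequenced as paired reads of 150 bp, trimmed with fastp 0.23.2, aligned to GRCm38 with STAR 2.5.2b and counted per gene with featureCounts of Subread 1.5.2, per the labels' protocols. The submitters' processing notes also name DESeq2. The authors deposited a table of raw counts for each library, not normalized. Strand, the treatment of reads with several matches and the annotation release are not given in the sources used here. Symbols were taken from GENCODE M21, for 48970 of 49315 genes, and promoter windows from RefSeq (GRCm38.p6).

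Tests used edgeR 4.0.16 (R 4.3.3) on these counts: filterByExpr kept 17164 genes, libraries were scaled by TMM, and a quasi-likelihood model with 4 group means and robust estimation was fitted to the 12 libraries together. In each of 5 comparisons p-values were adjusted over every tested gene by the Benjamini-Hochberg method, and a gene passed under 0.05. SEs are the log2 fold change divided by the square root of the F statistic. The pipeline was tested on simulated counts. Groups come from the sample titles.

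Samples of PNU at 2 h and PNU at 6 h with the same replicate number had correlations of 0.256, 0.199 and 0.191 of their deviations from the group means over genes. Replicates 2 and 3 were near-identical in both groups, so these values are not independent. Ddx3y did not follow the numbers: in replicate 1 it stood at 2.33 CPM at 2 h and 0.140 CPM at 6 h. In replicates 2 and 3 it stood at 0.0889 and 0.0154 CPM at 2 h and at 7.30 and 6.67 CPM at 6 h. Whether the numbers pair these samples was not tested, and the labels name no shared animal, culture or day. No call on the genes changed with the number as a block.

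The genes and lists were chosen with earlier results of these data known. All 10 genes are named whatever their values. From the lists, up to 4 called genes of smallest p in a comparison, genes of the PDGF, KATP and paralog lists, and the 3 genes of nearest profile were named by rule. The rest of the called genes of a list, and those given without a call, were named after their values were seen. A few genes that the rules select are not reported here. Alternatives were 3 other scalings, 2 other filters, DESeq2 1.42.0, limma-voom (limma 3.58.1), the replicate block, a fit of the compared libraries alone, no robust estimation, near-identical libraries summed, exclusion of both libraries that stood apart or, chosen after seeing the data, of the 3 whose nearest library had the other treatment, and each library left out in turn.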

Additional observations from a re-analysis of the deposited data

How the results depend on the processing

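The number of mural genes that passed moved with the libraries more than with the scaling or filter. The share of all genes that passed in each setting is not given, so these counts do not set the mural genes apart from other genes. Summing near-identical libraries left 1 library of DMSO at 6 h and few libraries to estimate the spread. At 2 h, where 1 of 9 passed, DESeq2 passed 2, the fit to only the compared libraries 0, near-identical libraries summed 0, the fit without both libraries that stood apart 5, and the fit without the 3 libraries whose nearest library had the other treatment, added after seeing the data, 6. At 6 h, where 2 passed, these 5 settings gave 4, 4, 0, 6 and 6. For the PNU effect compared between times, where 0 passed, the fit without both libraries gave 3 and that without the 3 libraries 5. Over time within PNU, where 2 passed, summing gave 0, the fit without both libraries 4 and that without the 3 libraries 6. Leaving out 1 library at a time gave 0 to 5 at 2 h, 0 to 5 at 6 h, 0 to 4 for the difference between the times, 0 to 0 within DMSO and 1 to 3 within PNU. With the replicate block the counts were 1, 2, 0, 0 and 2 in this order, as without it, and every call on a single gene stayed on its side of the threshold. Outside the PNU groups, same-numbered samples correlated at -0.0489 to 0.0798, and no samples are known to share more than a number.

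None of the values of changed sign passed. Without the 3 libraries, Pdgfrb at 2 h was -0.04, Rgs5 at 2 h -0.33, and over time within PNU Acta2 was 0.15 and Cnn1 0.24. Without both libraries that stood apart, Rgs5 at 2 h was -0.43, and, as without the 3, over time within DMSO Acta2 was 0.01, Myh11 -0.33 and Des -0.22. With near-identical libraries summed, Pdgfrb at 6 h was 0. Over time within PNU, Acta2 was 0.07 with upper-quartile scaling, 0.06 with library totals, 0.01 with no filter and 0.08 without both libraries, and Cnn1 was 0.07, 0.05, 0 and 0.11, and 0 in limma-voom. With 1 library left out, differences that took both signs ranged at 2 h from -0.72 to 0.03 for Myh11, -0.03 to 0.09 for Mcam, -0.01 to 0.11 for Pdgfrb and -0.44 to 0.47 for Rgs5. At 6 h the range was -0.29 to 0.02 for Pdgfrb, and for the effect between times -0.02 to 0.27 for Acta2. Within DMSO it was -0.28 to 0.01 for Acta2, -0.33 to 0.32 for Myh11 and -0.23 to 0.52 for Des, and within PNU -0.04 to 0.08 for Acta2 and -0.09 to 0.12 for Cnn1. The cause was not tested. Depth limits Rgs5 and Kcnj8, which lay near the floor of 3 counts.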
